A study of Mus musculus with 2 samples.

Results

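The genes described here are 9 genes grouped around the passage of calcium into and out of mitochondria. They are the porins Vdac1, Vdac2 and Vdac3, the uniporter genes Mcu, Micu2 and Mcur1, the exchanger gene Slc8b1, and Letm1 with its less well known relative Letm2. They were taken by symbol from the platform annotation, with every probe set that is assigned to 1 of these symbols alone, which gave 20 of the 45101 probe sets on the array. Expression was measured in Neuro2a cells, a mouse neuroblastoma line, transfected with siRNA against Cpeb1 mRNA (siCPEB1) or with control siRNA (siControl), both by lipid transfection and, per the sample labels, for 24 h. One Affymetrix Mouse Genome 430 2.0 array was hybridised for each condition with cRNA from 100 ng of total RNA. The knockdown was transient, and each array averages over all cells of 1 culture, so that fewer cells expressing a gene and less of its RNA per cell cannot be told apart. There is no replicate, no p-value can be given, and every ratio below compares these 2 arrays.

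Mitochondria take up calcium along the voltage across their inner membrane. Calcium crosses the outer membrane through the voltage-dependent anion channels (VDACs), which also carry ATP, ADP and other small metabolites. It crosses the inner membrane through the uniporter, whose pore protein is encoded by Mcu and gated by EF-hand proteins of the MICU family. It leaves again in exchange for sodium through the protein of Slc8b1 (NCLX), and LETM1 is an inner membrane protein of ion exchange and of cristae structure. In neurons this traffic shapes cytosolic calcium signals and stimulates dehydrogenases of the tricarboxylic acid cycle. CPEB1 binds U-rich elements near the ends of mRNAs and controls their polyadenylation and translation.

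For Letm2 and for the knocked-down gene the study also designed qPCR primers, shown here as the sequences by which these mRNAs were followed outside the array. They are written from 5′ to 3′ in lower case, with no base marked, and the amplicons were not placed on transcripts here.
Letm2 forward: catcacttgcatttctccac
Letm2 reverse: cctgttagactgggatagga
Cpeb1 forward: aagaaggttcagattgaccc
Cpeb1 reverse: aagtacttgaagcagacctg

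The knockdown was visible on the array, and both arrays had a similar distribution of signals. Cpeb1 (chromosome 7 of GRCm38, 81347026 to 81458001) had a signal of 38.5 in siCPEB1 and 302 in siControl at its 1 probe set, 7.86-fold lower. The median signal was 21.6 in siCPEB1 and 21.0 in siControl. To be counted, a probe set had to be at or above the array median on 1 array and at or above the 25th percentile on both, and 23655 probe sets were. Since no detection flags were used, this filter stands in for them. Within the arrays, probe sets of the same gene differed in their log2 ratio with a pooled SD of 0.37, and this SD ranged from 0.63 at the dimmest to 0.21 at the brightest of 10 levels of signal. For the 18 hybridization controls, which are spiked equally into each sample, the log2 ratios averaged -0.13 (SD 0.075). How far cultures of 1 condition differ cannot be read from such values. Of 12 markers of sympathetic neuroblastoma 8 were counted. Phox2a had 1443 in siCPEB1 and 565 in siControl and Gata3 172 in siCPEB1 and 46.0 in siControl, both past 2-fold higher, whereas Stmn2 had log2 ratios of -0.30 and -0.65. Of the brightest markers, Hand2 had 4033 in siCPEB1 and 3191 in siControl and Tubb3 2623 in siCPEB1 and 2341 in siControl. The signals of Th were 17.9 in siCPEB1 and 18.6 in siControl, below the median of both arrays. The 8 counted markers had a median log2 ratio of 0.99, with 7 above 0. Of 13 markers of other cell types 3 were counted (Mbp, Pecam1 and Pdgfra, median log2 ratio 0.72), and the summed signal of the probe sets of this list was 485 in siCPEB1 and 345 in siControl, with no marker at 0. The part of these shifts in the ratios below was not tested.

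Of the 9 genes, Letm2 was the one with a ratio past 2-fold among its counted probe sets. It was higher in siCPEB1. The VDAC genes, Mcu at its brighter probe set and Micu2 had log2 ratios close to 0, and Mcur1 was lower in siCPEB1 within 2-fold. In all, 16 of the 20 probe sets passed the filter, at least 1 for each gene. Of these 16, 2 were more than 2-fold higher, both of Letm2, which is 12.5% against 4.49% of all 23655 counted probe sets. None was more than 2-fold lower, against 4.04% of all. The study had itself taken Letm2 from its microarray results for qPCR. The 12.5% is therefore not independent of the choice of genes and says nothing about the other genes. With 1.5-fold as the limit, 3 of 16 were higher (18.8%, against 12.9% of all) and 1 was lower (6.25%, against 12.1% of all). The third higher probe set, 1420825_at of Letm1, was counted only through its siCPEB1 signal, so that the 1.5-fold count of higher probe sets says nothing beyond Letm2. Because probe sets of 1 gene measure the same mRNA, these counts are not counts of independent genes. Over the 9 genes with 1 probe set each, the median log2 ratio was 0.0078, against 0.045 over all 11554 genes measured.

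**Figure D1:**
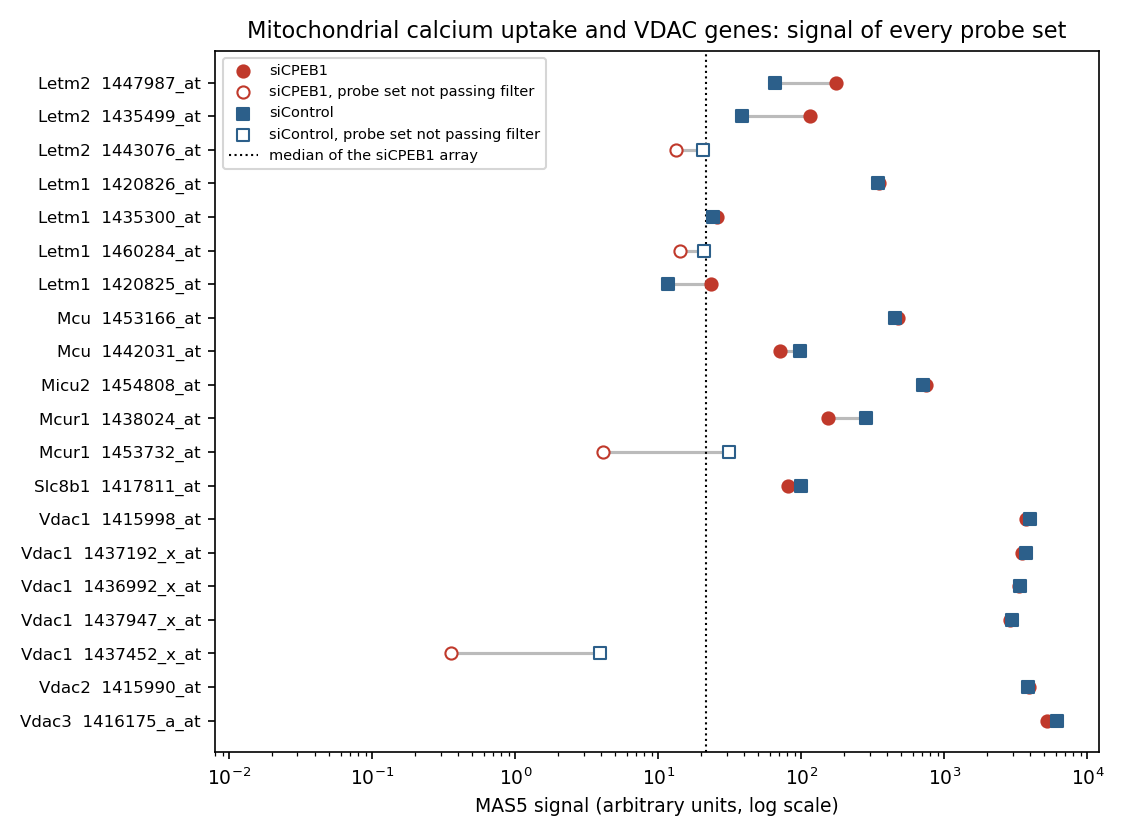
MAS5 signal (log scale) of each of the 20 probe sets of the 9 genes on the siCPEB1 array (red circles) and the siControl array (blue squares), joined by a grey line, with open symbols for the 4 probe sets that did not pass the filter and a dotted line at the median of the siCPEB1 array. The upper 2 probe sets of Letm2 lie to the right in siCPEB1, the symbols of the VDAC genes nearly coincide from 2860 upward except at the open Vdac1 pair, and both probe sets of Mcur1 lie to the left in siCPEB1.

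The porins of the outer membrane had nearly the same signal in both arrays. Vdac1 encodes the most studied VDAC, a beta-barrel channel that binds hexokinase and lies at contacts with the endoplasmic reticulum (chromosome 11, 52360851 to 52389397). At the probe set 1415998_at it had a signal of 3741 in siCPEB1 and 3985 in siControl, a log2 ratio of -0.091. At 1437192_x_at the signals were 3516 in siCPEB1 and 3714 in siControl (-0.079). These probe sets and the next ones give the same picture of a small difference on a strong signal. At 1437947_x_at Vdac1 had 2860 in siCPEB1 and 2958 in siControl (-0.049), and at 1436992_x_at it had 3342 in siCPEB1 and 3377 in siControl (-0.015). The 4 log2 ratios had an SD of 0.034 among themselves, and all 4 were closer to 0 than the SD of 0.21 that same-gene probe sets had at this signal. Probe sets named _x_at hold probes that can also bind other transcripts, so that 3 of these 4 values may include related sequences. The fifth probe set, 1437452_x_at, had signals of 0.356 in siCPEB1 and 3.91 in siControl, both below the 25th percentile of their arrays, and no change can be read from it.
Vdac2, which encodes the porin that holds BAK at the outer membrane (chromosome 14, 21831561 to 21845879), had 3889 in siCPEB1 and 3868 in siControl at its 1 probe set. Its log2 ratio of 0.0078 was the one closest to 0 among the 16 counted probe sets. Vdac3 (chromosome 8, 22577075 to 22593813), a porin abundant in testis and sensitive to oxidation, had 5250 in siCPEB1 and 6119 in siControl at 1416175_a_at. Its log2 ratio of -0.22, 1.17-fold lower, was just above the SD of 0.21 at this signal, beside a mean of -0.13 for the hybridization controls. Thus all 6 counted VDAC probe sets lay within 0.25 of 0 on the log2 scale. Of all counted probe sets 40.6% lay within this range, and of the 2670 with a mean signal of at least 1000, as the VDAC probe sets have, 59.1% did. Under the other scalings of the arrays Vdac3 stayed below 0, at -0.26 after scaling to the array medians, -0.12 after loess and -0.078 after quantile normalization. Vdac1 at 1415998_at also stayed below 0, between -0.13 and -0.0059, whereas its 3 _x_at probe sets and Vdac2 changed sign with the scaling.

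The genes of the uniporter differed among themselves. Mcu, the pore-forming subunit (annotated on older arrays as Ccdc109a, chromosome 10, 59446984 to 59617409), had 477 in siCPEB1 and 452 in siControl at 1453166_at, and the log2 ratio was 0.077. At 1442031_at, its dimmer probe set, the signals were 70.6 in siCPEB1 and 98.1 in siControl, with a log2 ratio of -0.47. The probe sets therefore pointed in opposite directions and lay 0.55 apart, and the second exceeded the SD of 0.35 at its signal. Micu2, an EF-hand protein that keeps the pore closed at low cytosolic calcium (chromosome 14, 57916280 to 57999296), had 743 in siCPEB1 and 708 in siControl. Its log2 ratio of 0.070 was well within the SD of 0.26 at this signal.
Mcur1, which encodes an inner membrane protein that binds MCU and promotes its assembly and calcium uptake (chromosome 13, 43538406 to 43560344), was the lowest of the 9 genes in siCPEB1. At 1438024_at it had 153 in siCPEB1 and 282 in siControl, 1.84-fold lower, with a log2 ratio of -0.88 against an SD of 0.31 at this signal. Of all counted probe sets, 5.56% had a ratio as low or lower. Its other probe set, 1453732_at, had 4.08 in siCPEB1 and 31.4 in siControl. Here the siCPEB1 signal was below the 25th percentile of the array, so that the probe set was not counted, and with that signal set at the array median it was at least 1.45-fold lower. Both probe sets of Mcur1 were thus lower in siCPEB1, and neither was past 2-fold on counted signals.

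The remaining 3 genes, Slc8b1, Letm1 and Letm2, included the largest difference among the counted probe sets. Slc8b1 encodes NCLX, the exchanger that releases matrix calcium for sodium (known before as Slc24a6, chromosome 5, 120511168 to 120534024). Its 1 probe set had 80.7 in siCPEB1 and 99.6 in siControl, a log2 ratio of -0.30 within the SD of 0.35 at this signal.
Letm1, whose loss swells mitochondria and whose human gene lies in the region deleted in Wolf-Hirschhorn syndrome (mouse chromosome 5, 33739673 to 33782717), had 349 in siCPEB1 and 341 in siControl at its brightest probe set, 1420826_at. The log2 ratio there was 0.034. The other 3 probe sets of Letm1 were dim. At 1435300_at the signals were 25.9 in siCPEB1 and 24.3 in siControl (0.092), and at 1460284_at, which missed the filter, they were 14.2 in siCPEB1 and 21.0 in siControl (-0.57). At 1420825_at Letm1 had 23.4 in siCPEB1 and 11.7 in siControl, a log2 ratio of 0.99. This probe set passed only because its siCPEB1 signal reached the median, its ratio was just under 2-fold, and putting siControl at its array median left it at least 1.11-fold higher. The probe sets of Letm1 thus disagreed where they were dim, and were close to 0 at the brightest.
Letm2 encodes a relative of LETM1 in the mitochondrial inner membrane whose function is less well known (chromosome 8, 25578478 to 25597989). At 1435499_at it had 115 in siCPEB1 and 38.5 in siControl, 2.97-fold higher, with a log2 ratio of 1.57. At 1447987_at it had 174 in siCPEB1 and 65.5 in siControl, 2.65-fold higher, with a log2 ratio of 1.41. Both signals of both probe sets were above the array median, the ratios were 0.17 apart, and both exceeded the SD of same-gene probe sets at their signal, 0.40 and 0.35. Among the 23655 counted probe sets they held ranks 312 and 444 from the highest ratio. At the third probe set, 1443076_at, Letm2 had 13.4 in siCPEB1 and 20.7 in siControl, both below the median of their arrays, so that it was not counted.

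**Figure D2:**
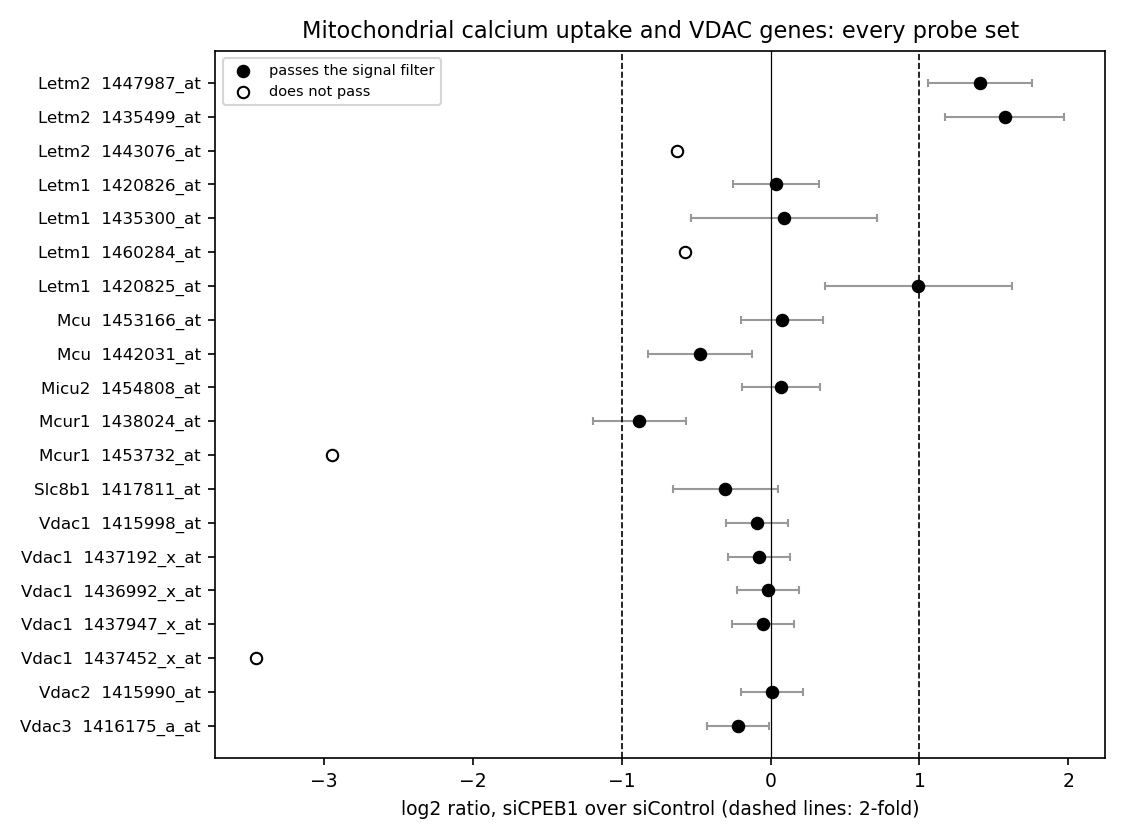
Ratio of the siCPEB1 signal to the siControl signal (log2) for each of the 20 probe sets, with filled circles for those that passed the filter, open circles for the others, and bars of 1 SD of same-gene probe sets at a like signal (not a spread between cultures). Filled circles of Letm2 lie beyond the upper 2-fold line at 1.41 and 1.57, those of the VDAC genes lie between -0.22 and 0.0078, and Mcur1 lies at -0.88.

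**Figure D3:**
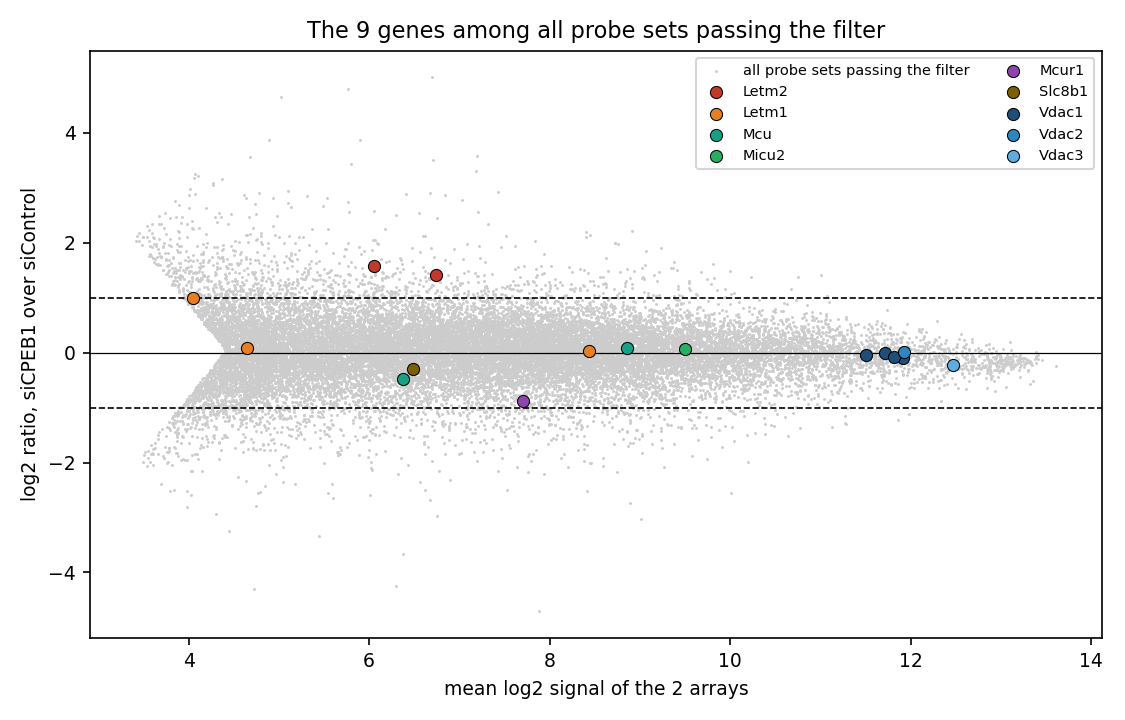
Log2 ratio of siCPEB1 over siControl against the mean log2 signal of the 2 arrays for the 23655 counted probe sets (grey) and the 16 of the 9 genes (colours), with dashed lines at 2-fold and a notch on the left made by the filter. Letm2 lies in the sparse region above the upper line at middle signal, Letm1 at 0.99 lies on the edge of the notch, and the VDAC probe sets lie in the narrow right end.

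Genes that act beside these 9 were described in the same way. Among partners and processing enzymes of the uniporter 7 genes were measured, and 1 was past 2-fold, lower in siCPEB1. Of all counted probe sets, 4.04% were past 2-fold lower. Maip1, a matrix protein that protects the uniporter subunit EMRE from degradation before assembly, had 188 in siCPEB1 and 591 in siControl at its counted probe set, 3.15-fold lower. Its other probe set was dim in both arrays (1.75 in siCPEB1 and 5.82 in siControl). Smdt1, which encodes EMRE itself, had 1602 in siCPEB1 and 1719 in siControl (log2 ratio -0.10). Yme1l1, a protease of the inner membrane, had log2 ratios from -0.49 to -0.20 at 3 counted probe sets. The median of the 7 genes was -0.10, against 0.045 over all genes.
Ghitm (TMBIM5), described as a calcium-proton exchanger of the inner membrane, was lower at both of its probe sets. It had 587 in siCPEB1 and 2338 in siControl at 1415881_at, 3.98-fold lower, and 1773 in siCPEB1 and 3570 in siControl at 1415882_at, 2.01-fold lower. The second value fell short of 2-fold after quantile normalization (log2 ratio -0.98) and after loess (-0.94). Letmd1, a mitochondrial protein with a LETM1-like domain, had log2 ratios from 0.24 to 0.44 at its 3 counted probe sets. Ghitm and Letmd1, which make up this list, thus differed in opposite directions. Ghitm was past 2-fold lower as deposited, and neither gene was past 2-fold higher. Past 2-fold lower were 4.04% of all counted probe sets, and 4.49% were past 2-fold higher.
Of 8 sodium-calcium exchangers related to Slc8b1, 4 were measured, and 2 of them were past 2-fold higher at the probe set used. Slc24a3 among them was counted only through its siCPEB1 signal. Of all counted probe sets, 4.49% were past 2-fold higher. Slc24a3, a potassium-dependent exchanger of the plasma membrane, had 27.4 in siCPEB1 and 11.2 in siControl, or an increase of at least 1.30-fold if siControl is put at its array median. Slc8a1, the sodium-calcium exchanger NCX1, had 113 in siCPEB1 and 52.8 in siControl at 1440201_at (2.15-fold higher) but 25.5 in siCPEB1 and 30.7 in siControl at 1425817_a_at. Slc8a3, its relative NCX3, had 47.5 in siCPEB1 and 24.5 in siControl (log2 ratio 0.95). For Slc24a2 the signals were 26.9 in siCPEB1 and 32.0 in siControl. The median log2 ratio of the 4 was 1.03, but -0.19 over the 7 genes on the array without the filter, so this list gives no direction.

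None of 12 porin partners, 12 genes of contact between endoplasmic reticulum and mitochondria and 9 calcium-regulated mitochondrial proteins was past 2-fold at the probe set used. Of all counted probe sets, 4.49% were past 2-fold higher and 4.04% lower, so that lists of this size may well hold none. The median log2 ratios of the 3 lists were 0.097, -0.076 and -0.0080. Among the partners of the porins, the adenine nucleotide carrier Slc25a4 had log2 ratios from -0.25 to -0.17 at 3 counted probe sets with siCPEB1 signals of 6654 to 7131, and Slc25a5 had ratios from -0.14 to -0.019 at 8. Samm50, which inserts porins into the outer membrane, had -0.29 and -0.13. These are the brightest of the list, while 7 of its 12 measured genes had ratios above 0, up to 0.45 for Tspo, an outer membrane protein that is named, like the next gene, after its value was seen. Hk2, a hexokinase that binds VDAC, had 314 in siCPEB1 and 565 in siControl (log2 ratio -0.85). Hk1, a hexokinase of the same list named for comparison, had log2 ratios of -0.34 and -0.29. At the contact sites, Hspa9, the chaperone that links VDAC to the inositol trisphosphate receptor, had log2 ratios from -0.65 to -0.28 at 4 probe sets and of 0.71 at the dimmest. That dimmest probe set was counted only through its siCPEB1 signal, and was at least 1.56-fold higher with siControl at its array median. Park7 had -0.11 and -0.083, and Bcap31, a protein of the endoplasmic reticulum that binds the fission protein FIS1, had 0.068 and 0.025. Pdzd8, a tether of the endoplasmic reticulum, is also named after its values were seen. It had 11.0 in siCPEB1 and 26.4 in siControl at a dim probe set, which is at least 1.22-fold lower with siCPEB1 at its array median, and a log2 ratio of 0.39 at its brightest. Among the calcium-regulated proteins, the ATP carrier Slc25a24 had -0.74 and -0.55, and the aspartate-glutamate carrier Slc25a12 had -0.62 at its brightest probe set. Idh3a, a subunit of the isocitrate dehydrogenase that calcium stimulates, had 0.23 at its brightest probe set and from -0.20 to 0.51 at its other counted ones.

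**Figure D4:**
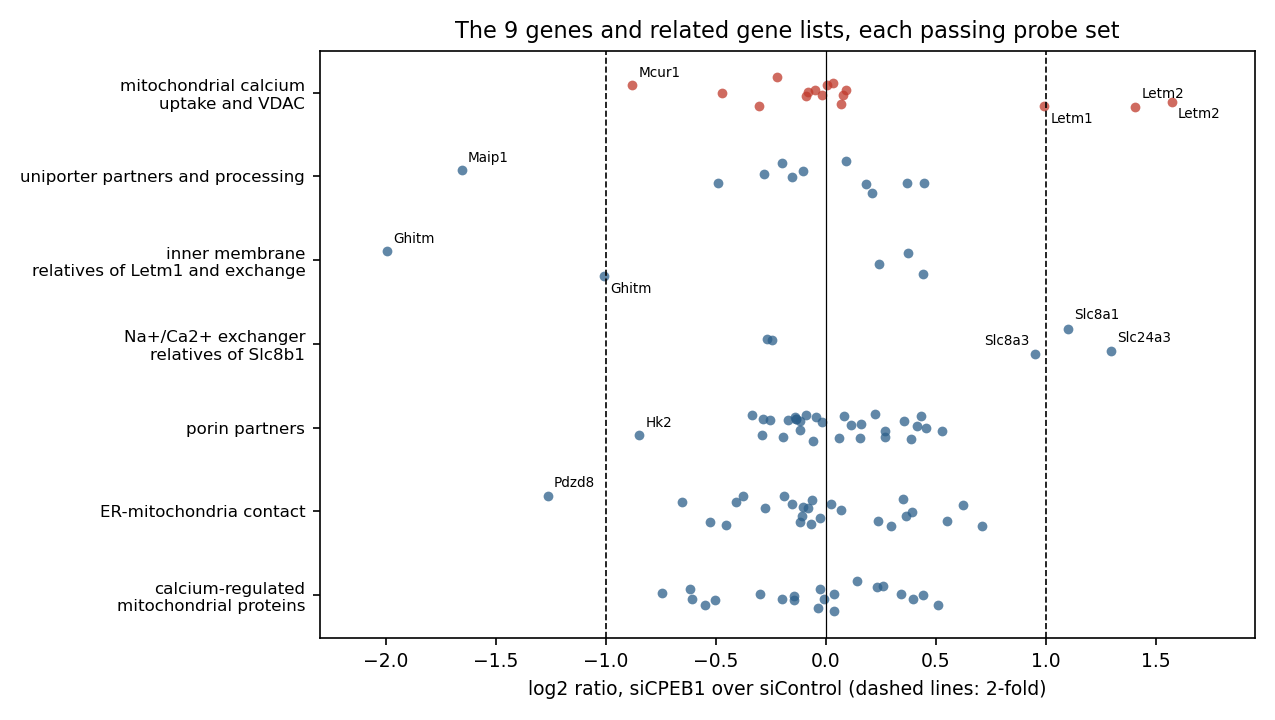
Ratio of the siCPEB1 signal to the siControl signal (log2) for each counted probe set of the 9 genes (red) and of 6 lists of related genes (blue), with dashed lines at 2-fold, names where the ratio is large, and vertical scatter inside a row for legibility only. Letm2 lies above 2-fold, while Maip1 at -1.66 and Ghitm at -1.99 and -1.01 lie below it.

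**Figure D5:**
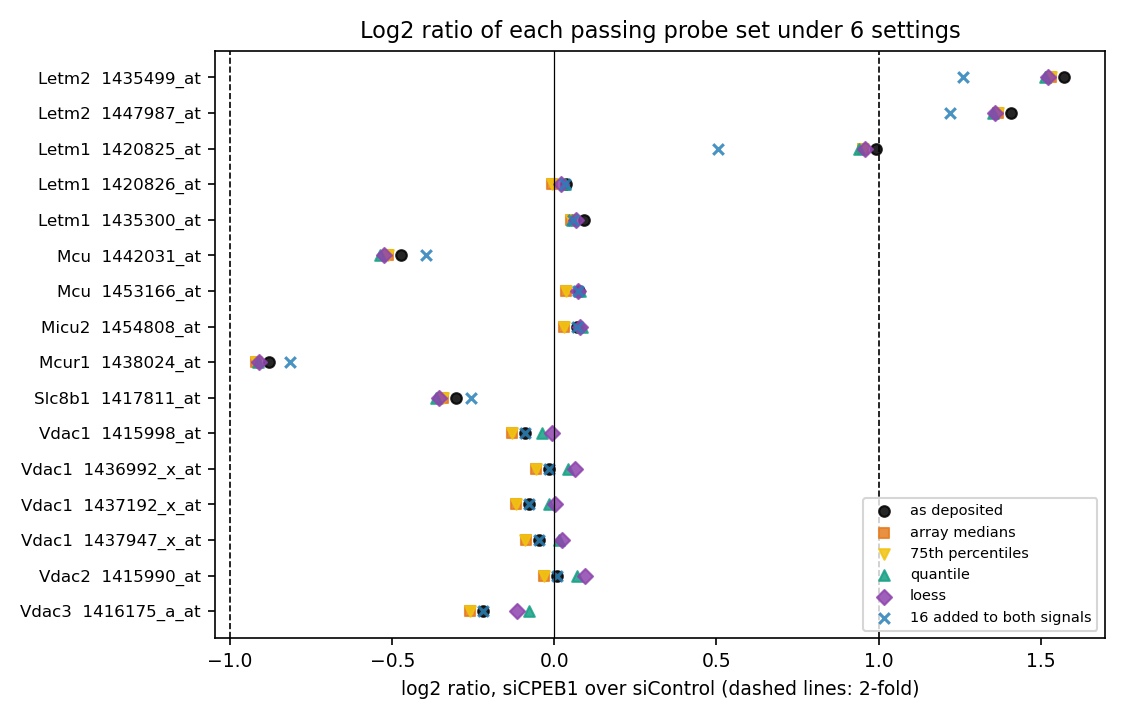
Log2 ratio of siCPEB1 over siControl of the 16 counted probe sets as deposited, after 4 other scalings of the arrays, and with 16 added to both signals. Both Letm2 probe sets stay beyond the 2-fold line under every setting drawn, Letm1 at 1420825_at moves to 0.50 with 16 added, and the 3 _x_at probe sets of Vdac1 and that of Vdac2 change sign with the scaling.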

How the data were processed

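The deposited intensity values are linear signals, 1 per probe set, which the authors made with the MAS5 algorithm of Affymetrix Expression Console (no version stated) by background subtraction and scaling of each whole array. The sources used here do not state the target of that scaling. Ratios (siCPEB1 over siControl, log2) used these signals without further scaling. Counts omit 64 AFFX control probe sets. Symbols came from the platform annotation, updated by gene identifier to RefSeq names of GRCm38, which also gave gene positions: 34945 probe sets had 1 symbol, 932 several and 9160 none listed. A gene was represented by 1 probe set that passed the filter, by preference not _x_at or _s_at and otherwise the brightest. The spread among same-gene probe sets was estimated from 14939 probe sets of 5531 genes. The lists of related genes were written from known functions, and from each were named the genes past 2-fold at every counted probe set and the 3 with the highest signal. The genes and lists were chosen with earlier results of these data known. With 1 array per condition, precision is limited by their number. Alternatives were 3 other filters, 4 other scalings (median, 75th percentile, quantile, and loess of span 0.3), an offset of 16 on both signals, a fold of 1.5, counts without _x_at and _s_at probe sets, and the mean of the counted probe sets of a gene. Bounds with a dim signal set at the array median were added later. The steps were tested on simulated data. Python 3.11.15 was used with numpy 2.4.6, pandas 2.3.3, statsmodels 0.14.6 and matplotlib 3.10.9.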

Additional observations from a re-analysis of the deposited data

How the results depend on the processing

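Both counted probe sets of Letm2 stayed above 2-fold under the 4 other scalings and with 16 added to both signals (log2 ratios of 1.26 to 1.57 at 1435499_at and 1.22 to 1.41 at 1447987_at). Some counted probe sets close to 0 changed sign with the scaling. They were 1420826_at of Letm1 (0.034 as deposited, -0.0059 after scaling to the 75th percentiles), the 3 _x_at probe sets of Vdac1, and Vdac2. With the 75th percentile required in 1 array, 1 of the Letm2 probe sets was counted. Without a filter, 2 probe sets of the 9 genes were lower (those of Mcur1 and Vdac1 with a siCPEB1 signal below the 25th percentile), and with a fold of 1.5, 1 was. Scaling to the array medians moved every ratio by -0.04, loess moved them by -0.087 to 0.10 and quantile normalization by -0.15 to 0.14, against which the ratios of Vdac1 and Vdac2 are small. The 1061 higher and 956 lower probe sets on the whole array became 450 and 460 with 16 added, 6405 and 5326 without a filter, 551 and 596 with the median required in both arrays, 274 and 398 with the 75th percentile in 1 array, and 3063 and 2869 with a fold of 1.5. Cpeb1 had a log2 ratio of -2.55 with 16 added. The median of the exchanger relatives of Slc8b1 was -0.19 without a filter, and none of these genes was left with the 75th percentile required. With the 75th percentile required, the median was 0.040 for the uniporter partners and 0.068 for the contact genes, both below 0 otherwise. That of the calcium-regulated proteins was 0.14 without a filter and 0.10 with the mean of the probe sets of a gene, and that of Ghitm and Letmd1 was -0.57 with this mean, against -0.32. The medians of the exchanger relatives, the uniporter partners, the contact genes and the calcium-regulated proteins thus changed sign and give no direction. The median of the porin partners stayed above 0 (0.057 to 0.12), beside 0.045 over all genes as deposited. That of Ghitm and Letmd1 stayed below 0, but it lies between genes that differed in opposite directions, so it gives no direction for both. The median of the 9 genes also changed sign, from 0.0078 to -0.032 after scaling to the array medians. It was -0.059 with the mean of the probe sets of a gene. No paired analysis was possible because each condition has 1 array. Dim signals limit the ratios of Letm1 beyond its brightest probe set and the second probe set of Mcur1.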
